A study of Mus musculus with 89 samples.

Results

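The genes described here encode ankyrins (Ank2, Ank3), an adducin (Add1) and proteins of the 4.1 family (Epb41, Epb41l1, Epb41l3), which tie membrane proteins to the spectrin and actin skeleton under the cell membrane. These 6 genes were taken by symbol, with every exon skipping event listed for them in 2 deposited tables of RNA from the nucleus accumbens of mice, part of the brain's reward circuit. The HSV table lists 53 such events of 46 distinct exons for them, out of 27900 events in 9542 genes. The dCas9-SET2 table lists 35 events of 34 distinct exons for the same 6 genes, out of 5608 events in 3434 genes.

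All RNA libraries came from wild-type C57BL/6 mice labelled 8 weeks old, whose nucleus accumbens was taken with a punch, so the tissue holds every cell type of the punch. In the HSV experiment, herpes simplex virus carried Set2, the methyltransferase that places trimethylation on lysine 36 of histone H3, Set2 with the substitution R195G, or GFP, with 3 libraries labelled for each. In the other experiment, dCas9-SET2, a catalytically inactive Cas9 joined to SET2, was paired with an sgRNA for Srsf11, a gene of splicing (labelled sgRNA-SRSF11), or a non-targeting guide (sgRNA-NT), with 16 runs under 4 sample names for each guide. The labels do not name the infected cells, the promoters or the number of animals per library. The series as a whole asked how this chromatin mark relates to alternative splicing after cocaine.

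Neither table names its libraries. The HSV table groups its values into 3 libraries, called the trio here, and 2 libraries, called the duo, so it covers 5 of the 9 labelled libraries, and no virus can be assigned to either. The dCas9-SET2 table holds a first and a second set of 16 positions, and no guide can be assigned to a set. Differences below are therefore between unnamed sets: the trio against the duo, and the second set against the first.

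Ankyrins hold ion channels, transporters and cell adhesion molecules at defined places of the membrane by binding them on one side and spectrin on the other. Ank2 and Ank3 each carry a giant exon that neurons include to make giant ankyrins of the axon, which organise the axon shaft (Ank2) and the axon initial segment and nodes of Ranvier (Ank3). Adducin caps actin filaments and brings spectrin to them, and protein 4.1 strengthens the contact of spectrin with actin; alternative splicing is known to switch the spectrin-actin contact of Epb41 on during red cell maturation.

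The inclusion level (PSI) is the fraction of transcripts of an event that include its exon, from 0 to 1, after division of reads by the length of each form. Reads inside the exon count as inclusion reads, so long exons gather many. Summed over their events, the trio's HSV libraries held 7428974 to 8341849 reads and the duo's 8366275 to 8638249. The dCas9-SET2 runs held 56946 to 84870 reads in the second set and 79799 to 106251 in the first. In both sets of the dCas9-SET2 table, the values at positions 4 and 8 were identical in all 5608 events, so they were counted as 1 run, which leaves 15 runs per set. Nothing in the labels places the libraries in separate animals, so p-values do not measure a spread between animals, and differences between libraries may be technical. In the tests of inclusion, p-values rest on read counts and on a spread pooled over events of like depth. An event's own spread between libraries barely enters them.

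Of the 53 events in the HSV table, 30 had enough reads of both forms to be tested (on average 20 per library, with at least 10 from the less common form in total). Inclusion was called different between the sets for 6 of the 30, at an adjusted p below 0.05 in limma on the logit of inclusion, against 3.56% of all 7754 tested events. The 6 calls fall in 5 of the 6 genes, while 5.67% of all genes with a tested event had a call. These shares are not alike: the 6 genes hold 30 tested events, against 7754 in 4194 genes. On average a gene here thus had more events in which a call could fall. Inclusion rose in the trio, as it did in 1.69% of all tested events, for the giant exon of Ank2 and for overlapping exons of 37 and 34 nt in Add1. It fell, as in 1.87% of all tested events, for a 450-nt exon of Epb41, an 84-nt exon of Epb41l1 and a 117-nt exon of Epb41l3. Trio and duo did not overlap in 15 of the 30 tested events, against 27.8% of all tested events, and the authors' deposited table gives an FDR below 0.05 to 11 of them, against 12.6%. The median absolute difference of mean PSI was 0.0433 over the 30 events and 0.031 over all tested events.

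**Figure D1:**
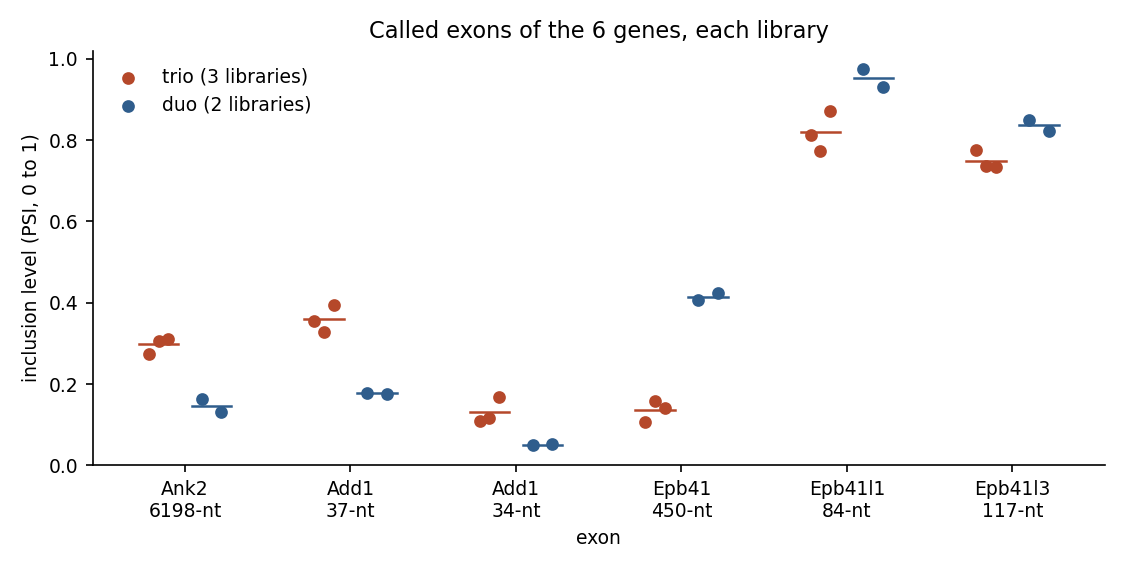
Inclusion level (PSI, vertical axis) of the 6 called exons in each of the 5 libraries of the HSV table; points are libraries, short lines are set means, red is the trio and blue the duo. The trio's points lie above the duo's points for the exons of Ank2 and Add1 and below them for the 3 genes of the 4.1 family.

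How firmly these calls stand depends on how the spread between libraries is treated. In the test used, each value is weighted by its reads, so deep events can have very small p-values. With a spread between libraries added to the counting error (an alternative chosen after seeing the data), 2 of the 6 remained, the 450-nt exon of Epb41 (adjusted p = 0.0342, limma) and the 84-nt exon of Epb41l1 (0.018). That setting also pooled the residual spread over all events and not over events of like depth. With no weights, limma called 0 of all 7754 events, with 785 at an unadjusted p below 0.05. All 6 differences kept their direction under every setting tried, which adds no support. The sets did not overlap in these events, so leaving out a library could not turn the direction.

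The giant exon of Ank2, 6198 nt long (chromosome 3, 126644528 to 126650725 on the minus strand, in the coordinates of the HSV table), was the deepest event of the 6 genes. Its PSI was 0.275, 0.305 and 0.312 in the trio, against 0.163 and 0.131 in the duo. All 3 libraries of the trio stood above both others, a logit difference of 0.90 (SE 0.094, adjusted p = 8.58e-19, limma), which had an adjusted p of 0.134 once a spread between libraries was added. The change lay in the reads that include the exon: scaled to the depth of each library (CPM, over all listed events), there were 516, 481 and 561 inclusion reads in the trio, against 236 and 212 in the duo. Skipping reads overlapped, at 32.1, 25.9 and 29.2 CPM in the trio and 28.7 and 33.1 in the duo.

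Inclusion in the other 8 tested Ank2 events did not pass the test. A 12-nt exon had PSI 0.959, 0.952 and 0.984 in the trio, against 0.883 and 0.839 in the duo, without overlap (adjusted p = 0.157, limma). One of its 99-nt exons (126732137 to 126732235) stood apart as well: PSI was 0.875, 1.0 and 0.864 in the trio, against 0.776 and 0.723 in the duo (adjusted p = 0.404). The authors' deposited table gives both an FDR below 0.05, at 0.000865 and 0.0101. A 183-nt exon near the end of the gene stood at 0.482, 0.486 and 0.491 in the trio and 0.451 and 0.509 in the duo, so the sets overlapped. Ank2 lists 7 separate exons of 99 nt, the length of 33 codons, which is the usual length of an ankyrin repeat; 5 of them were tested and the other 2 were included at 0.979 or more in every library. In all, 12 of its 13 listed exons are a multiple of 3 nt long.

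Ank3 had 4 listed events in the HSV table, none over 225 nt, so its giant exon was not analysed there. The 1 tested event, a 63-nt exon, had PSI 0.307, 0.151 and 0.202 in the trio and 0.281 and 0.195 in the duo. The sets overlapped, with a logit difference of -0.077 (SE 0.29, adjusted p = 0.939, limma). Its direction turned when single libraries were left out. The event had a mean of 105 reads per library.

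In Add1, both called events lie at the same exon. A 37-nt exon (chromosome 5, 34971785 to 34971821 in the HSV table) showed PSI values of 0.354, 0.328 and 0.395 in the trio, against 0.179 and 0.176 in the duo. A 34-nt form of the same exon, which starts 3 nt later and ends at the same base, had PSI 0.108, 0.116 and 0.167 in the trio, against 0.049 and 0.053 in the duo. The logit differences were 0.95 (SE 0.099, adjusted p = 7.88e-19, limma) and 1.03 (SE 0.17, adjusted p = 6.44e-07). Both forms are measured against the same skipping reads, so they are not separate evidence, and both have an adjusted p of 0.099 with a spread between libraries added. Those skipping reads came to 58.0, 62.2 and 50.7 CPM in the trio, against 119 and 97.1 in the duo. Inclusion reads of the 37-nt form were apart as well, at 39.6, 37.8 and 41.3 CPM in the trio, against 32.2 and 25.8 in the duo. Those of the 34-nt form were at 8.63, 10.1 and 12.5 CPM in the trio, against 7.52 and 6.69 in the duo. Neither 37 nor 34 is a multiple of 3.

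A 50-nt Add1 exon just downstream of the 37-nt exon went the other way among transcripts that hold the 37-nt exon. Its PSI was 0.053, 0.074 and 0.041 in the trio, against 0.103 and 0.129 in the duo, without overlap, and the difference did not pass the test (adjusted p = 0.0832, limma; authors' deposited FDR 0.003). Against reads that skip both exons, the same 50-nt exon stood higher in the trio, also without overlap. There its PSI was 0.008, 0.016 and 0.008 in the trio, against 0.004 and 0.006 in the duo (adjusted p = 0.495, limma). An 87-nt exon stood at 0.16, 0.152 and 0.137 in the trio and 0.184 and 0.167 in the duo, and overlapping exons of 279 and 178 nt stayed at or below 0.115 in every library. None of these was called. The sets did not overlap in any of the 7 tested Add1 events, against 27.8% of all tested events. These 7 are not separate evidence: the 37-nt and 34-nt forms share exon sequence and skipping reads, as do the 279-nt and 178-nt forms. The 50-nt event read against skipping of both exons uses the skipping reads of the 37-nt exon too. In the other 50-nt event, the skipping reads join the end of the 37-nt exon to the exon after the 50-nt one. Reads over that junction also count as inclusion of the 37-nt and 34-nt forms. More inclusion of those forms therefore adds skipping reads to this 50-nt event, and its opposite direction is not a separate observation.

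**Figure D2:**
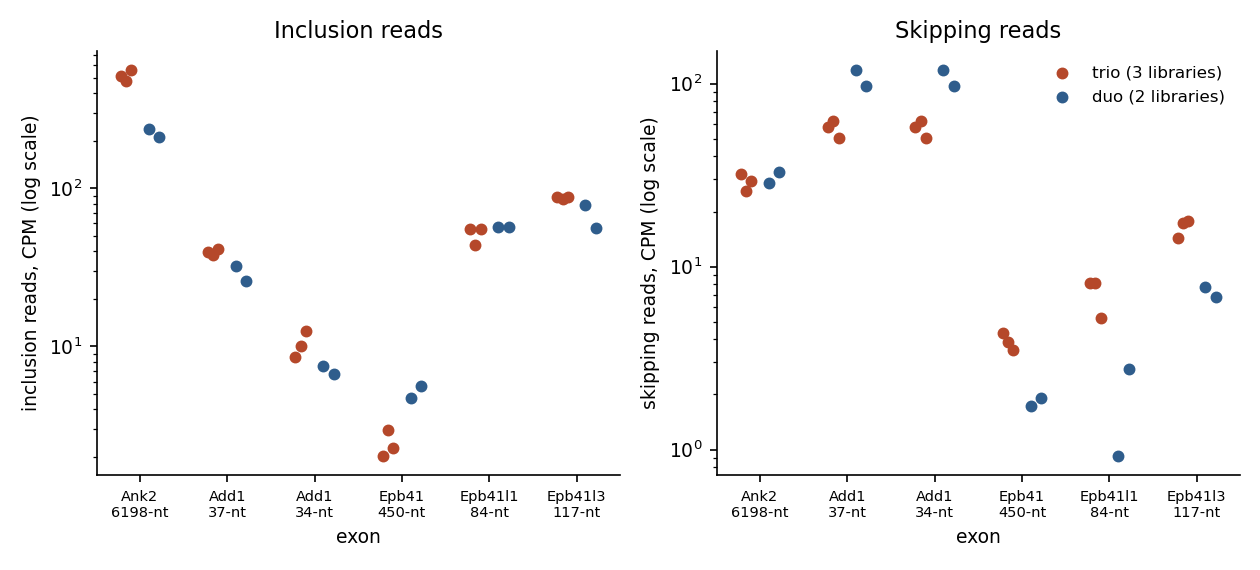
Inclusion reads (left) and skipping reads (right) in CPM over all listed events, on log scales, for the 6 called exons in each library; red is the trio and blue the duo. For the Ank2 exon the sets are apart in inclusion reads and overlap in skipping reads. For the Add1, Epb41, Epb41l1 and Epb41l3 exons they are apart in both.

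Epb41, the 4.1 protein of red cells and brain, was thinly covered, at 9.8 to 63.4 reads per library over its 10 listed events. Its 450-nt exon (minus strand of chromosome 4, 131492930 to 131493379) showed PSI values of 0.106, 0.159 and 0.14 in the trio, against 0.406 and 0.423 in the duo. This was the largest difference of mean PSI among the 6 calls, at -0.280, with a logit difference of -1.49 (SE 0.38, adjusted p = 0.00547, limma). It rests on 17, 22 and 17 inclusion reads in the trio, against 41 and 47 in the duo. Skipping reads numbered 36, 29 and 26 in the trio, against 15 and 16 in the duo. Leaving out 1 library of the duo or the other gave an adjusted p of 0.0847 or 0.110.

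A 63-nt Epb41 exon followed the same direction without passing the test. Its PSI was 0.157, 0.224 and 0.105 in the trio, against 0.378 and 0.35 in the duo (adjusted p = 0.22, limma; authors' deposited FDR 0.0116). The neighbouring 57-nt and 42-nt exons lie within a flanking intron of this event. The 42-nt event, at 9.8 reads per library, was not tested and stood higher in the trio, at 0.439, 0.439 and 0.369, against 0.258 and 0.089 in the duo. The 57-nt exon has 2 listed events. In the tested one it ranged from 0.021 to 0.209 in the trio and from 0.111 to 0.357 in the duo, and in the other, too thinly covered to test, from 0.108 to 0.666 in the trio and from 0.287 to 0.541 in the duo; the sets overlapped in both. All 3 tested Epb41 events had a lower mean in the trio.

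Epb41l1 encodes the neuronal 4.1N, known to bind the AMPA receptor subunit GluA1. Its 84-nt exon (chromosome 2, 156360422 to 156360505) showed PSI values of 0.812, 0.774 and 0.871 in the trio, against 0.975 and 0.93 in the duo. The sets did not overlap, with a logit difference of -1.37 (SE 0.29, adjusted p = 0.000289, limma). Skipping reads numbered 68, 61 and 39 in the trio, against 8 and 23 in the duo. Inclusion reads were apart as well, at 55.0, 43.7 and 55.2 CPM in the trio, against 57.3 and 56.8 in the duo. Leaving out the duo's first library gave an adjusted p of 0.0763. The event spans another listed exon of 87 nt, so its skipping reads leave out both exons together. That 87-nt exon, read with the 84-nt exon as its right neighbour, was included at 0.992 or more in every library. Reads that leave out both exons do not enter that level. It therefore cannot show whether the 87-nt exon stayed in where the 84-nt exon was skipped.

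None of the other 3 tested exons of Epb41l1 was called. A 49-nt exon had PSI 0.888, 0.855 and 0.859 in the trio, against 0.99 and 0.953 in the duo, without overlap (adjusted p = 0.319, limma; authors' deposited FDR 0.000604). The 36-nt exon lay between 0.955 and 0.974 in the trio and at 0.968 and 0.959 in the duo. A 408-nt exon, the deepest event of the gene, lay between 0.965 and 0.982 in the trio and at 0.979 and 0.982 in the duo. Mean PSI was lower in the trio in all 4 tested events.

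Epb41l3 encodes 4.1B, which sits beside the nodes of Ranvier and binds cell adhesion molecules of the Cadm family. Its 117-nt exon (chromosome 17, 69636952 to 69637068) showed PSI values of 0.775, 0.737 and 0.735 in the trio, against 0.85 and 0.823 in the duo. This was the weakest of the 6 calls, with a logit difference of -0.55 (SE 0.16, adjusted p = 0.0277, limma). The call was lost in 4 of the 5 fits that leave out a library: adjusted p was 0.552 without the first and 0.0751 without the second library of the duo, and 0.083 and 0.103 without the second and the third library of the trio. The other 5 tested events of the gene overlapped between the sets. Among these, a 528-nt exon was included at 0.148, 0.166 and 0.148 in the trio and 0.163 and 0.162 in the duo, and a 36-nt exon at 0.792, 0.861 and 0.768 in the trio and 0.813 and 0.708 in the duo.

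**Figure D3:**
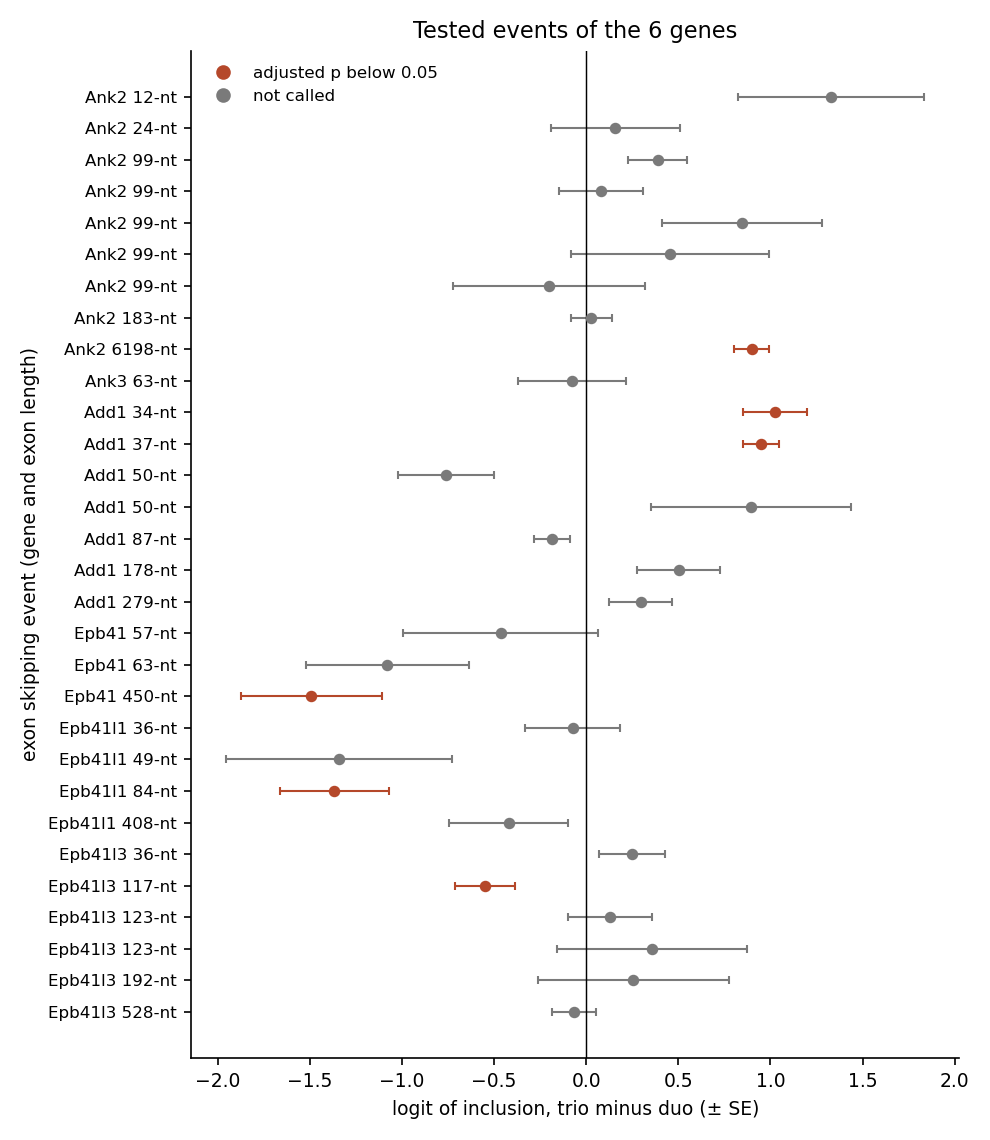
Logit difference of inclusion, trio minus duo, with its SE for the 30 tested events, by gene and exon length. The 6 called events are red; 3 lie right of 0 (higher in the trio) and 3 left of it, and the events of Ank3 and the 5 other events of Epb41l3 lie within 0.36 of 0.

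Of the 23 events not tested, 16 had PSI of at least 0.9 in every library, 4 had at most 0.03, and 3 had too few reads. Exon lengths were a multiple of 3 nt in 44 of the 53 listed events and in 24 of the 30 tested ones. By logit difference, 17 of the 30 tested events were higher in the trio and 13 lower; 46.9% of all tested events were higher.

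Total reads over the deepest event of each gene, as a stand-in for its RNA level, differed for 3 of the 6 genes, against 22.7% of all 8201 genes tested (limma on log2 CPM, TMM scaling); 13.2% of all genes were called higher in the trio and 9.49% lower. Add1 fell to 232, 223 and 259 CPM in the trio, against 386 and 369 in the duo, a log2 difference of -0.67 (SE 0.095, adjusted p = 0.000229). Epb41l3 had 208, 208 and 215 CPM in the trio, against 183 and 130 in the duo, a log2 difference of 0.44 (SE 0.13, adjusted p = 0.0277). The deepest event of Epb41l3 is its 117-nt exon, whose inclusion was called too, so the same reads enter both calls. The coverage call was lost without the second library of the duo (adjusted p = 0.228) and without any 1 library of the trio (0.0716 to 0.0944).

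Ank2 had 1114, 1017 and 1200.5 CPM in the trio, against 564 and 504 in the duo, a log2 difference of 1.06 (SE 0.090, adjusted p = 3.31e-06). Here the deepest event is the giant exon itself, so its inclusion enters the total. Over the deepest Ank2 event with an exon under 1000 nt the log2 difference was 0.18 (SE 0.12, adjusted p = 0.327). Epb41l1 had 712, 724 and 726 CPM in the trio and 871 and 701 in the duo. Ank3 lay between 44.4 and 69.9 in the trio and at 55.6 and 40.2 in the duo. Epb41 had 12.2, 25.6 and 12.1 in the trio and 16.99 and 14.5 in the duo. For these 3 genes the sets overlapped and the test was not passed, with adjusted p of 0.419 for Epb41l1, 0.562 for Ank3 and 0.982 for Epb41. In such bulk libraries, fewer cells of a type and less RNA per cell cannot be told apart.

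**Figure D4:**
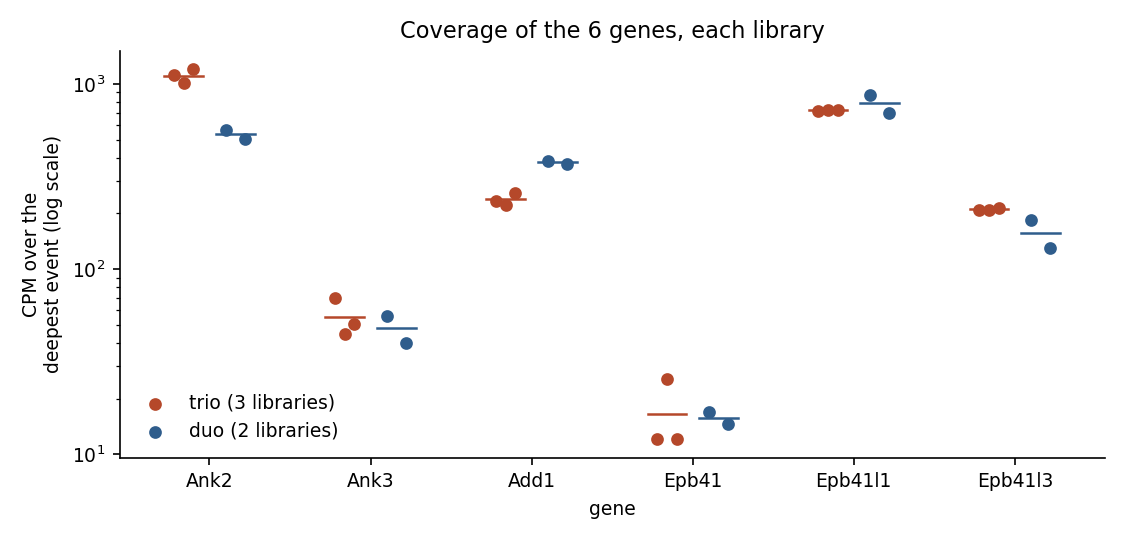
CPM over the deepest event of each gene (vertical axis, log scale) in each of the 5 libraries; lines are set means, red is the trio and blue the duo. Ank2, through its giant exon, and Epb41l3 stand higher in the trio and Add1 lower, while the points of Ank3, Epb41 and Epb41l1 overlap.

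Markers of cell types moved with the same sets. Markers counted below as higher, lower, risen or fallen are those called in the coverage test (adjusted p below 0.05, limma). Of all genes tested for coverage, 13.2% were called higher in the trio and 9.49% lower. Measured markers that did not pass the test are in neither count. The 6 measured medium spiny neuron markers, of 10 listed, summed to 2676 to 2906 CPM in the trio, against 6868 to 8562 in the duo, and all 6 fell. The 6 microglia markers, of 7, summed to 2530 to 2598 in the trio, against 909 to 1935 in the duo, with 4 higher. The 6 oligodendrocyte markers summed to 7841 to 10226 in the trio, against 5990 to 7303 in the duo, with 5 higher. The 4 measured astrocyte markers, of 6, summed to 1730 to 1910 in the trio, against 1209 to 1687 in the duo, with 2 higher. The sums of the 4 general neuron markers overlapped, at 5903 to 6911 in the trio and 5579 to 6524 in the duo, with 2 markers higher and 2 lower. The 5 measured interferon response genes, of 9, summed to 1981 to 2280 in the trio, against 52.7 to 98.0 in the duo, and all 5 rose. No measured marker was at 0, and none of the 5 vascular markers was measured. Their part in the splicing and coverage differences of the 6 genes was not tested.

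Other genes of the same skeleton were read from 3 lists. Relatives of the 6 genes and the spectrins had 20 tested events in 5 genes with 1 call, close to the 3.56% of all tested events: a 63-nt exon of Sptan1, the alpha spectrin of non-red cells, had PSI 0.029, 0.027 and 0.03 in the trio, against 0.008 and 0.003 in the duo (adjusted p = 0.0209, limma). Membrane proteins that ankyrins hold had 31 tested events in 8 genes with 3 calls, all lower in the trio (1.87% of all tested events were called lower). Among them was a 45-nt exon of Itpr1, a calcium release channel, with PSI 0.949, 0.915 and 0.907 in the trio, against 0.994 and 0.984 in the duo (adjusted p = 0.0424, limma).

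The third list, of actin-side proteins and partners of protein 4.1, had 23 tested events in 8 genes with 6 calls, 1 higher and 5 lower in the trio, against 3.56% of all tested events called, 1.69% higher and 1.87% lower. A 79-nt exon of Tpm1, a tropomyosin, had PSI 0.232, 0.333 and 0.315 in the trio, against 0.137 and 0.198 in the duo (adjusted p = 0.00126, limma). Cadm1, an adhesion molecule that binds protein 4.1, had an 84-nt exon listed in 2 events; in one of these it stood at 0.511, 0.477 and 0.405 in the trio, against 0.794 and 0.743 in the duo (adjusted p = 4.8e-06). A 69-nt exon of Cask, a scaffold kinase that joins protein 4.1, stood at 0.246, 0.281 and 0.281 in the trio, against 0.503 and 0.554 in the duo (adjusted p = 0.00915). The remaining calls were 2 exons of Dlg1 that share an end. The median absolute difference of PSI was 0.0422, 0.066 and 0.0593 in the 3 lists, beside 0.031 over all tested events.

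Among events of other genes, the levels most like those of the Ank2 giant exon over the 5 libraries were those of a 91-nt exon of Flot2, a 72-nt exon of Sars and a 132-nt exon of Palm. Their mean absolute differences of PSI from it were 0.009, 0.0236 and 0.0288. This is a description of 5 libraries.

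In the dCas9-SET2 table, events of the 6 genes were called at close to the share of all events. The authors' deposited table gives an adjusted p (padj) below 0.05 to 2 of the 35 events, against 4.96% of all events with a padj, and both were lower in the second set, as were 2.72% of all. From reads summed over the 15 runs, 18 events were higher and 17 lower in the second set, with a median absolute difference of 0.0191, beside 0.0503 over all events. A difference of at least 0.05 was seen in 9 of the 35 events, against 50.2% of all events. The median event of the whole table had 4 reads per run in the second set and 5.47 in the first. Beyond their counting margin were 5 of the 35, against 10.9% of all events: the Ank2 99-nt, Ank3 218-nt and 33-nt, Add1 279-nt and Epb41 57-nt exons. The runs are repeats of 4 sample names per guide and not independent, so no further test was made and the intervals below cover counting error only.

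The Ank2 giant exon (chromosome 3, 126941610 to 126947807; the coordinates of this table lie inside the GRCm38 spans of the 6 genes) had nearly the same level in both sets. Its PSI was 0.314 in the second set (95% exact binomial interval 0.291 to 0.339) and 0.317 in the first (0.297 to 0.337), a difference of -0.00251 with a counting margin (95%) of 0.0311. Single runs ranged from 0.244 to 0.411 with a median of 0.318 in the second set, and from 0.259 to 0.384 with a median of 0.311 in the first. The authors' deposited table gives it a padj of 0.421. A 99-nt Ank2 exon (127248134 to 127248232) was called: its PSI was 0.117 (0.0744 to 0.173) in the second set, against 0.193 (0.144 to 0.251) in the first. The authors' deposited table gives it a dPSI of -0.097 and a padj of 0.0221. It rests on 24 inclusion reads in the second set and 52 in the first, and its single runs overlapped, at 0 to 0.333 in the second set and 0 to 0.6 in the first.

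The Ank3 giant exon, 7674 nt (chromosome 10, 69986089 to 69993762), was close to full inclusion. Its PSI was 0.945 (0.9 to 0.974) in the second set and 0.931 (0.893 to 0.958) in the first, from 9 skipping reads in the second set and 17 in the first. A 2550-nt form that begins 6 nt before it is read against the same skipping reads, at 0.955 in the second set and 0.941 in the first. Single runs of the 7674-nt exon had a median of 1.0 with a lowest value of 0.791 in the second set, and a median of 0.934 with a lowest value of 0.838 in the first. The authors' deposited table gives the 7674-nt exon a padj of 0.389 and the 2550-nt form one of 0.157.

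The other called event is a 218-nt exon of Ank3 (69993545 to 69993762) that ends at the same base as the giant exon, and its left neighbouring exon lies inside the giant exon. The event therefore compares splicing within the giant exon. Its PSI was 0.256 (0.197 to 0.325) in the second set, against 0.449 (0.38 to 0.523) in the first, a difference of -0.194 with a counting margin of 0.0962. The median run had 0.238 in the second set, against 0.522 in the first, while single runs overlapped, at 0.135 to 0.61 in the second set and 0.238 to 0.696 in the first. The authors' deposited table gives it a dPSI of -0.141 and a padj of 0.0493, just under the threshold. With the run at each position left out of both sets in turn, the difference stayed between -0.215 and -0.169. Other runs of the same sample name then remain, so this cannot show whether 1 sample carries the difference. Reads inside the tail of the giant exon count as inclusion of this 218-nt exon, so both forms of the giant exon's end enter its level.

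Small exons of Ank3 had low levels. A 33-nt exon was at 0.262 (0.201 to 0.332) in the second set and 0.146 (0.105 to 0.196) in the first, a difference of 0.116 beyond its counting margin of 0.0797, with a padj of 0.115 in the authors' deposited table. The 63-nt exon was at 0.155 in the second set and 0.167 in the first. Exons of 12, 24, 27 and 309 nt were all below 0.14 in both sets.

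The deepest events of the other genes differed by less than their counting margins. The Add1 37-nt exon was at 0.297 (0.271 to 0.324) in the second set and 0.32 (0.295 to 0.345) in the first, and single runs ranged from 0.139 to 0.439 in the second set and from 0.221 to 0.525 in the first. The Epb41 450-nt exon was at 0.461 (0.359 to 0.574) in the second set and 0.407 (0.325 to 0.499) in the first. The Epb41l1 408-nt exon was at 0.974 in the second set and 0.979 in the first, and the Epb41l3 117-nt exon at 0.846 in the second set and 0.848 in the first. The remaining Epb41 events had few reads, down to 0.467 per run in the second set and 0.867 in the first. The largest difference, 0.476 for the 57-nt exon, exceeded its counting margin of 0.372 and rests on 10 inclusion and 2 skipping reads in the second set, against 5 and 8 in the first.

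**Figure D5:**
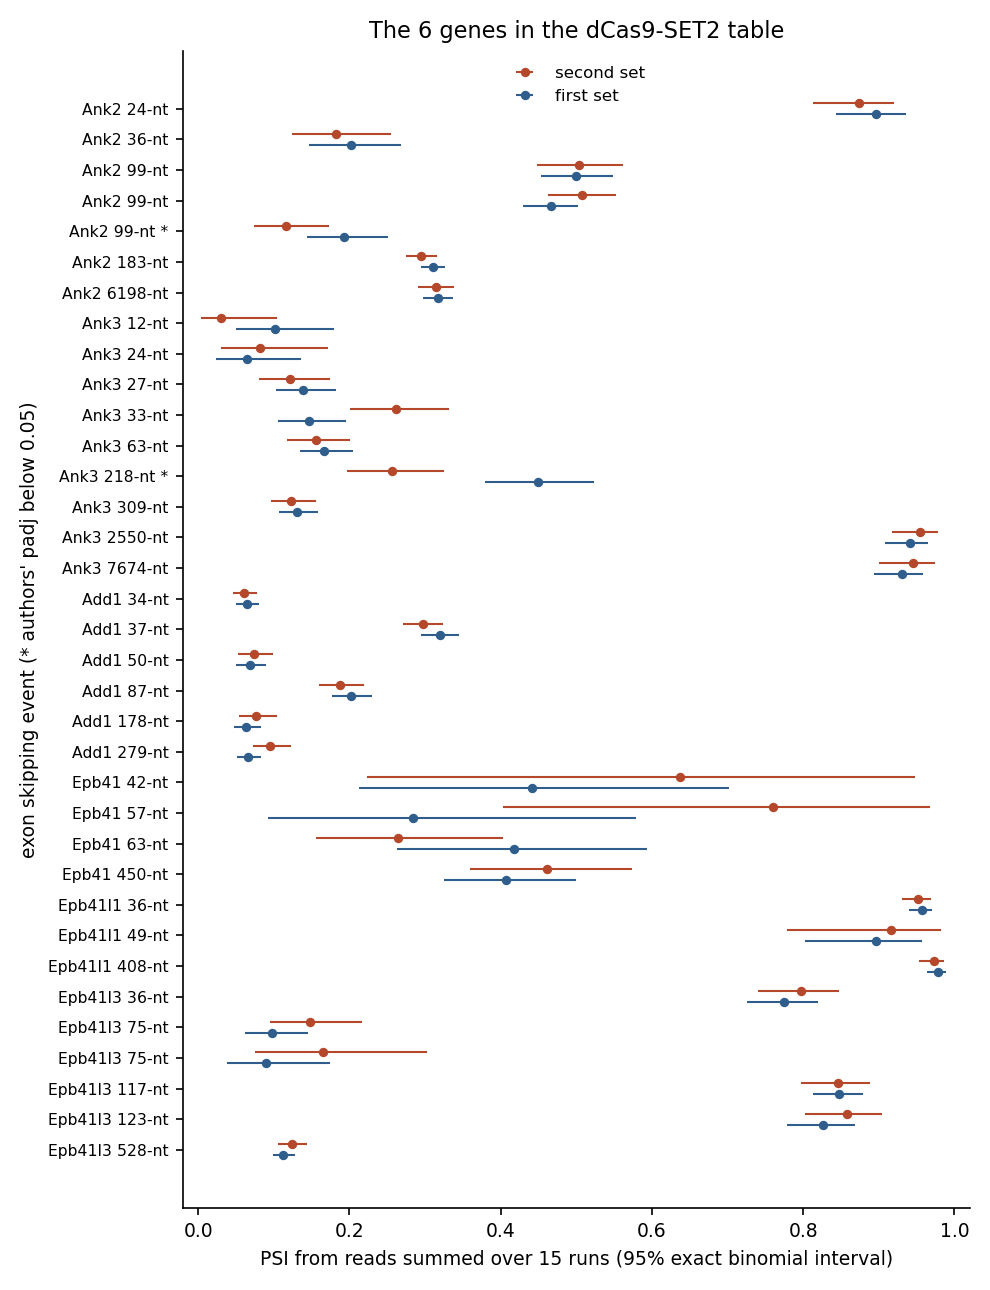
PSI from reads summed over the 15 distinct runs of each set, with 95% exact binomial intervals for counting error, for the 35 events of the 6 genes; red is the second set, above, and blue the first. The intervals of the sets overlap for all but the Ank3 218-nt and 33-nt exons, and those of the 57-nt and 42-nt exons of Epb41 are the widest.

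By gene, exon length and the lengths of both neighbouring introns, 24 events were matched between the tables without comparing coordinates. Of the 6 events called in the HSV table, 5 are among them, and the authors' deposited table gave none of these 5 a padj below 0.05 in the dCas9-SET2 experiment. The difference of PSI was 0.150 in the HSV table and -0.00251 in the dCas9-SET2 table for the Ank2 giant exon. It was 0.182 and -0.0228 for the Add1 37-nt exon, 0.0793 and -0.00382 for its 34-nt form, -0.280 and 0.0543 for the Epb41 450-nt exon, and -0.0875 and -0.00142 for the Epb41l3 117-nt exon. These dCas9-SET2 values are from summed reads. The authors' deposited dPSI had the other sign for the 34-nt form, at 0.0092, and for the Epb41 450-nt exon, at -0.0563. For the other matched calls the signs were the same. The Ank2 99-nt exon called in the dCas9-SET2 table was tested in the HSV table and not called, at 0.272, 0.205 and 0.236 in the trio and 0.209 and 0.376 in the duo (adjusted p = 0.91, limma). Because the sets of both tables are unnamed, these pairs are values side by side and say nothing of a shared or opposite condition.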

How the data were processed

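Exon skipping events with inclusion and skipping reads were read from 2 tables made by the authors. The submitters' processing notes name STAR 2.4.1d, Bowtie2, mm9 and mm10 without roles, and neither the event caller nor the authors' tests are given in the sources used here. The deposited counts are whole numbers joined by commas in a cell, and 5 value columns in the HSV table and 32 in the dCas9-SET2 table have no sample. Their libraries were compared as the sets each table defines. The p-value, FDR and padj per event were made by the authors, per the file headers. The difference scores were also deposited by the authors: the HSV score is the duo minus the trio and is printed the other way round, and dPSI had the sign of second minus first in 91.98% of the 262 events below 0.05, in 71.1% of the 1718 events whose mean level differed by at least 0.1, and in 22 of the 35 events of the 6 genes. Inclusion levels as deposited were recomputed from the reads and form lengths within 0.001 in 100% of values. Ensembl IDs were matched to symbols for 9430 of 9542 genes. By RefSeq spans on GRCm38, only 2 of the 6 genes' 53 HSV events fell within their gene, against 35 of 35 in the dCas9-SET2 table, so the build of the HSV coordinates is not stated.

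After adding 0.5 to either count, limma 3.58.1 (R 4.3.3) was run on the logit of inclusion, with weights from the reads and a spread trended on reads, for events averaging 20 reads per library with at least 10 of the less common form. Joined cells are not columns of counts, so no count model was used. Two-sided p-values were adjusted with Benjamini-Hochberg over all tested events and called at 0.05. Gene coverage was the reads over the deepest event (mean of 20), scaled by TMM (trims 0.3 and 0.05), and limma was run on its log2 with 0.5 added. Fits were tested on simulated data. PSI of the dCas9-SET2 table was computed from reads summed over 15 runs per set, with 95% exact binomial intervals, which cover counting error only, since reads are not independent molecules. The genes described, the lists and the tests were chosen with earlier results of these data known. Events given with all values were those called, exons of 1000 nt or more, the deepest tested event of a gene with no call and, in the dCas9-SET2 table, the called and deepest events; authors' calls and other exons were added after their values were seen. The chromatin libraries of the series were not used here. Values of 1 further gene of the listed membrane proteins are not reported here.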

Additional observations from a re-analysis of the deposited data

How the results depend on the processing

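In the HSV table, 276 events in all and 6 in the 6 genes were called; 1 shared spread, another added count and other read filters kept both counts within 1.5 times. With no weights, limma called 0 in all and 0 in the 6 genes, with 785 events at an unadjusted p below 0.05. Adding a spread between libraries, together with 1 shared residual spread, left 85 and 2, and the authors' deposited FDR gave 974 and 11. Leave-one-out fits gave 112 to 220 events in all and 3 to 6 in the 6 genes. The lowest, 112 and 3, lacked the duo's first library, and 173 and 4 lacked its second. The causes were not tested.

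The direction turned for Ank3, Epb41 and Epb41l1 in differences that had not passed the test. Over the leave-one-out fits, the logit difference of the Ank3 63-nt exon ran from -0.39 to 0.20, with 0.075 and 0.0028 among them. The log2 coverage difference ran from -0.043 to 0.43 for Ank3, with -0.0068 among them, and from -0.37 to 0.15 for Epb41, with 0.097 among them. By total reads it was 0.018 for Epb41. For Epb41l1 it ran from -0.27, which passed the test without the duo's second library (adjusted p = 0.0116, limma), to 0.041. Under every way of combining runs of the dCas9-SET2 experiment, 8 or 9 events differed by at least 0.05. No paired analysis was possible because the columns carry no replicate numbers. In the HSV table, depth limits Epb41 and Ank3 most, at means of 63.4 and 205 reads per library in their deepest events.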
